A study of Mus musculus with 12 samples.

Results

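Genes that mark bile duct cells, liver progenitor cells and reactive ductules were followed in mouse liver: Spp1, Tff3, Krt7, Krt19, Krt8, Krt18, Krt23, Sox9 and Epcam. These 9 genes are among the 31253 gene symbols listed for each library. Spp1 and Tff3 were picked because they stood higher after diethylnitrosamine (DEN) in the knock-in, so their values in any comparison with knock-in livers are a description without a test. The other 7 were taken as known duct and progenitor markers. RNA sequencing covered 12 libraries of liver from male C57BL6 mice, in 4 groups of 3. S302A_DEN livers came from mice with the S302A knock-in of CUGBP1 (an RNA-binding protein, gene Celf1) given DEN, and S302A_Ctrl livers from untreated knock-in mice. WT_DEN livers came from wild-type mice given DEN, and WT_Ctrl livers from untreated wild-type mice. DEN, a carcinogen that liver enzymes turn into a DNA-alkylating agent, was injected at 50 µg per g body weight at 3 weeks of age, and livers were taken 30 to 38 weeks later. The labels do not say whether each library is a separate animal, nor whether tumour tissue was included, so each p reflects how far the libraries of a group spread, which may be technical.

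Bile duct cells (cholangiocytes) line the ducts that drain bile, and in injured liver they and small progenitor-like cells can multiply in what is called a ductular reaction. Their keratins are the products of Krt7 and Krt19, while the keratins of Krt8 and Krt18 pair into the filaments of both hepatocytes and duct cells. Sox9 encodes a transcription factor of duct and progenitor cells, and Epcam encodes an epithelial adhesion protein used to isolate them. Spp1 encodes osteopontin, a secreted phosphoprotein that binds integrins and CD44 and is made by duct cells and by some macrophages. Tff3 encodes a trefoil factor, a small secreted peptide of mucus-producing epithelia that duct cells also make.

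Values were TPM, a transcript level relative to gene length and to the library's total, so levels can be set beside each other between genes. No value lay below 1, and 58.1% to 65.3% of the symbols in a library stood at 1, so 1 is read as a floor that means 1 or less. TPM keeps no depth, so the precision that depth gives is unknown. S302A_DEN replicate 3 stood apart: its Spearman correlations with the other libraries across genes were 0.877 to 0.913, against 0.937 to 0.980 among the other 11. In it 13083 genes exceeded 1 TPM, while the others had 10839 to 11653, and it lay above both other S302A_DEN replicates in 10539 of 12120 tested genes (87.0%). The main results that use it are therefore given with and without it. The fits were also run with the libraries scaled by the median-of-ratios method, in which its factor was 1.69 against 0.820 to 1.18 in the others. In a bulk sample, fewer cells of a type and less RNA per cell cannot be told apart.

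On mm10 the 9 genes lie on 4 chromosomes. Spp1 spans chr5:104435118-104441050 on the plus strand, Tff3 spans chr17:31125306-31129646 on the minus strand and Sox9 spans chr11:112782224-112787760 on the plus strand. Krt8 (chr15:101996698-102004482, minus strand) and Krt18 (chr15:102028180-102032027, plus strand) are neighbours that point away from each other, with 23697 bases and 0 annotated genes between them. Krt7, on the same chromosome, spans chr15:101411043-101430313 on the plus strand. Promoter windows, 250 bases before to 50 after each RefSeq start (GRCm38.p6), were matched by symbol for 6 of the 9 genes. Those of Spp1, Krt8 and Krt18 are shown because these 3 genes had the highest levels among the 6 and stood higher together in S302A_DEN livers. They are Spp1 at chr5:104434861-104435160 on the plus strand, Krt8 at chr15:102004293-102004592 on the minus strand and Krt18 at chr15:102027966-102028265 on the plus strand. Each is written 5′ to 3′, with capitals on the letters that matched a searched motif.
Spp1: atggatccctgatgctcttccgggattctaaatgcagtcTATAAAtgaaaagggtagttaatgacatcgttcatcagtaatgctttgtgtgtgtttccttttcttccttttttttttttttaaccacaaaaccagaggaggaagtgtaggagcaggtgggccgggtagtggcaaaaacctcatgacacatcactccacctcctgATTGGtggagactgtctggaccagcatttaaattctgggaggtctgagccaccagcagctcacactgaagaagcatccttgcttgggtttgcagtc
Krt8: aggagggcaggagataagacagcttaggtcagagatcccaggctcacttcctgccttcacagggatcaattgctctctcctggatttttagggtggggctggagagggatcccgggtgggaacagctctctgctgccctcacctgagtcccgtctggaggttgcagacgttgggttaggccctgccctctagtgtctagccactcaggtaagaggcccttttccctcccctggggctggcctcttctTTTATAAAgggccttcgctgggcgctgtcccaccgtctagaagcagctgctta
Krt18: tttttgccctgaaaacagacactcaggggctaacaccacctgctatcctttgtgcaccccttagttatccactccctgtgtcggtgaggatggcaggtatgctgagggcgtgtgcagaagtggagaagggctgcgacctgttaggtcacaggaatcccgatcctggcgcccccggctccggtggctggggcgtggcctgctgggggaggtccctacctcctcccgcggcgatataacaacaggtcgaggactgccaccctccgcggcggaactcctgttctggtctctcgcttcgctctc

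Both strands were searched for TATAAA as the core of a TATA box, for CCAAT, for GGGCGG as a GC box, for TGANTCA as an AP-1 motif and for GGAATG as a TEAD motif. The Spp1 window held TATAAA once and CCAAT once, the second as its reverse complement. The Krt8 window held TATAAA once on each strand, and those matches overlap. The Krt18 window held none of the 5 motifs. Among 32851 RefSeq promoter windows of the same length, 13.6% held TATAAA, 37.4% CCAAT, 35.7% GGGCGG, 7.8% TGANTCA and 14.7% GGAATG. The windows of Spp1, Krt8 and Krt18 held 45.3%, 58.0% and 61.3% G and C, against a median of 52.7% over all windows. A match describes letters only and is no sign that a factor binds.

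The markers divided by level before any group was compared. Krt7, the classical duct keratin gene, stood at 1 TPM in all 12 libraries. Krt19, the keratin gene most used to stain ducts, stood at 1.93 TPM in S302A_DEN replicate 3 and at 1 in the other 11 libraries. Epcam stood at 1.10 TPM in that same library and at 1 in the other 11. These 3 genes did not pass the filter for testing (TPM above 1 in at least 3 of the 12 libraries), and no difference between groups was detectable for them above the floor. Krt8 and Krt18, which hepatocytes express as well, stood above 100 TPM in every library. The defining duct keratins were thus at or near the floor, and the values that follow come from Spp1, Tff3, Krt8, Krt18, Krt23 and Sox9, the 6 genes that passed.

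**Figure D1:**
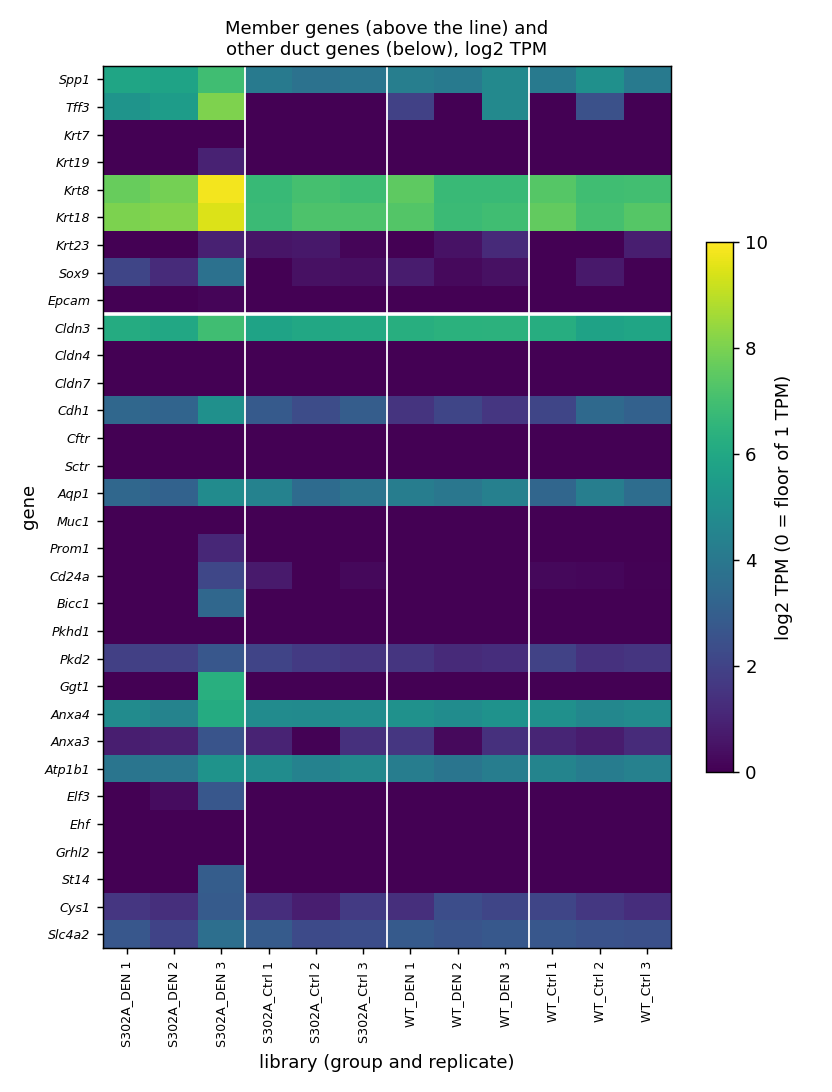
Level of the 9 genes (above the white line) and of 23 other duct genes (below it) in each library, as log2 TPM in colour, with 0 for the floor of 1 TPM. Krt7 is at the floor throughout, Krt19 and Epcam leave it only in S302A_DEN replicate 3, and 7 of the 23 other duct genes shown are at the floor in all 12 libraries.

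Among the secreted proteins, Spp1 had 59.0, 55.3 and 122 TPM in the S302A_DEN libraries and 17.1, 13.7 and 14.9 TPM in S302A_Ctrl. It had 19.4, 16.9 and 25.9 TPM in WT_DEN and 16.8, 32.1 and 17.5 TPM in WT_Ctrl. All 3 S302A_DEN values lay above all 9 others, while the other groups overlapped each other. Mean Spp1 was 78.8 ± 37.6 TPM in S302A_DEN and 15.3 ± 1.70 TPM in S302A_Ctrl (SD, n = 3 each), a ratio of 5.17, or 3.75 without S302A_DEN replicate 3. Among the 5 genes that stood highest in S302A_DEN, Spp1 was the one in which replicate 3 departed least after scaling, with scaled values of 60.2, 67.5 and 72.3 in the S302A_DEN libraries.

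Tff3 had 36.5, 46.6 and 264 TPM in S302A_DEN and stood at 1 TPM in all 3 S302A_Ctrl libraries. It had 3.87, 1 and 25.9 TPM in WT_DEN and 1, 5.53 and 1 TPM in WT_Ctrl. Its S302A_DEN values again lay above all 9 others, and they differed among themselves more than those of Spp1. Because S302A_Ctrl stood at the floor, the ratio of mean Tff3 in S302A_DEN to S302A_Ctrl is a lower bound: at least 116-fold higher, or at least 41.6-fold without replicate 3. S302A_DEN livers had a mean 11.3 times that of WT_DEN livers, a ratio set by single libraries: it was 4.06 without S302A_DEN replicate 3 and 47.6 without WT_DEN replicate 3. WT_Ctrl replicate 2 was the untreated library in which Tff3 exceeded the floor, and it was also the highest WT_Ctrl library for Spp1. Likewise WT_DEN replicate 3 was the highest WT_DEN library for both genes.

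**Figure D2:**
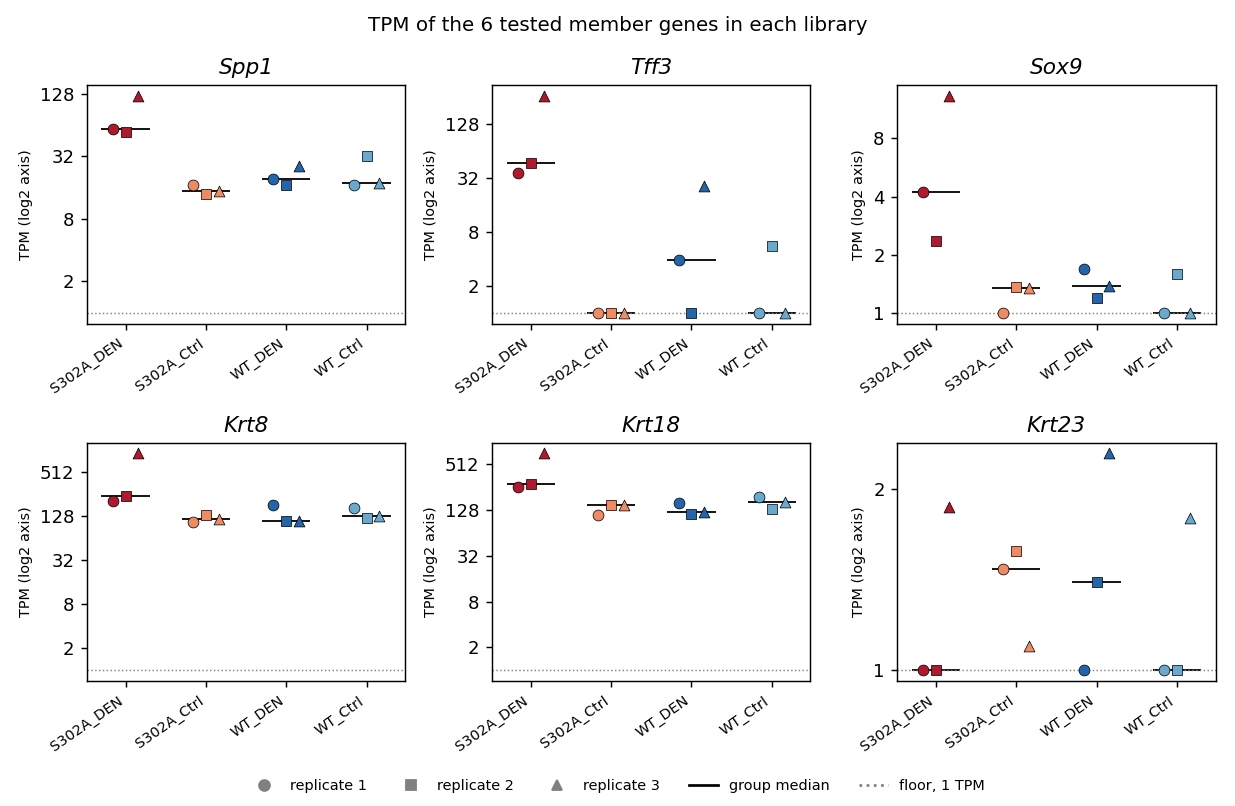
TPM of the 6 genes that passed the filter, 1 point per library with the group median as a bar, on log2 axes that differ between panels; marker shapes give the replicate and the dotted line the floor of 1 TPM. For Spp1, Tff3, Sox9, Krt8 and Krt18 the 3 S302A_DEN points lie above the 9 others, with replicate 3 highest, while Krt23 stays between 1 and 2.29 TPM with no order by group.

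Sox9 was low everywhere but followed the same order. It had 4.24, 2.35 and 13.3 TPM in S302A_DEN, and 1, 1.36 and 1.34 TPM in S302A_Ctrl. In wild-type livers it had 1.68, 1.19 and 1.37 TPM after DEN and 1, 1.59 and 1 TPM without it. Every S302A_DEN library lay above the other 9, and the remaining groups overlapped near the floor. Mean Sox9 was 6.63 ± 5.85 TPM in S302A_DEN and 1.23 ± 0.202 TPM in S302A_Ctrl (SD, n = 3 each), a ratio of 5.38, or 2.67 without replicate 3, which the floor can only understate.

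Krt8 had 206, 239 and 917 TPM in S302A_DEN and 106, 131 and 118 TPM in S302A_Ctrl. It had 181, 108 and 111 TPM in WT_DEN and 164, 122 and 127 TPM in WT_Ctrl. Krt18, its partner in the filament, had 260, 287 and 717 TPM in S302A_DEN and 112, 149 and 148 TPM in S302A_Ctrl. It had 160.2, 113 and 121 TPM in WT_DEN and 192, 133 and 164 TPM in WT_Ctrl. For both keratins the S302A_DEN libraries stood above the 9 others, and replicate 3 stood far above its own group. The ratio of the S302A_DEN mean to the S302A_Ctrl mean was 3.84 for Krt8 and 3.09 for Krt18, and 1.88 and 2.00 without replicate 3. Leaving it out lowered the ratio more for the keratins than for Spp1, and replicate 3 stood at 4.12 times the mean of replicates 1 and 2 for Krt8 and at 2.62 times for Krt18, but at 2.14 times for Spp1. Of all tested genes, 92.3% had a smaller excess in replicate 3 than Krt8, 79.0% a smaller one than Krt18 and 64.0% a smaller one than Spp1. Tff3 stood there at 6.36 times that mean, a larger excess than in 96.7% of tested genes.

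The balance of the keratin pair was close to even. Krt8 divided by Krt18 was 0.792, 0.834 and 1.28 in S302A_DEN and 0.944, 0.882 and 0.796 in S302A_Ctrl. The ratio was 1.13, 0.962 and 0.917 in WT_DEN and 0.854, 0.919 and 0.773 in WT_Ctrl. The groups overlapped in this ratio, and S302A_DEN replicate 3 had the highest value of the 12. Across the 12 libraries Krt8 and Krt18 had a Spearman correlation of 0.96, and of 0.95 over the 11 libraries without replicate 3, given as a description of libraries that share groups.

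**Figure D3:**
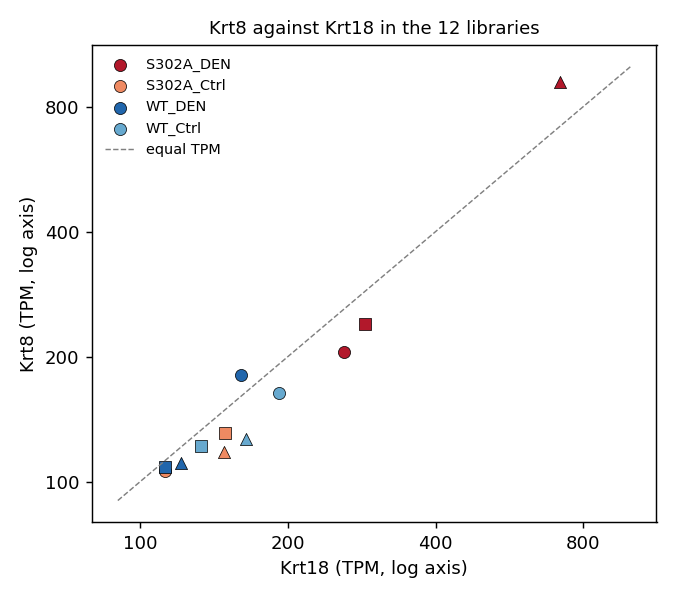
Krt8 against Krt18 in TPM on log axes, 1 point per library, coloured by group and with a shape per replicate; the dashed line marks equal TPM. The S302A_DEN libraries lie at the upper end, from 206 to 917 TPM of Krt8, and the ratio of Krt8 to Krt18 stays between 0.773 and 1.28.

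Krt23, a type I keratin gene known to be induced in injured liver, was the exception among the genes that passed. It had 1, 1 and 1.87 TPM in S302A_DEN, 1.47, 1.58 and 1.10 TPM in S302A_Ctrl, 1, 1.40 and 2.29 TPM in WT_DEN and 1, 1 and 1.79 TPM in WT_Ctrl. These values overlapped in every pair of groups. Its log2 difference in S302A_DEN against S302A_Ctrl was -0.07 ± 0.22 (SE; limma adjusted p = 0.864), and its sign changed when either S302A_DEN replicate 1 or replicate 2 was left out (0.01 in each case).

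The test of each comparison was a limma fit on log2(TPM + 1) over all 12120 genes that passed the filter, with Benjamini-Hochberg adjustment over all of them; a log2 difference on this scale understates that of genes near the floor. For the effect of DEN in the knock-in, 0.421% of tested genes were called higher at an adjusted p below 0.05, and the groups did not overlap upwards in 15.8%. None of the 4 tested members that were not picked on this effect (Krt8, Krt18, Sox9 and Krt23) was called, while 3 of the 4 had an unadjusted p below 0.05, as did 16.4% of tested genes. Krt18 stood higher by 1.47 ± 0.33 (SE, adjusted p = 0.0664), Sox9 by 1.503 ± 0.39 (adjusted p = 0.1004) and Krt8 by 1.59 ± 0.44 (adjusted p = 0.123). The median of all tested genes was 0.27 on the same scale, and 0.01 after scaling. Spp1 stood higher by 2.20 ± 0.32 and Tff3 by 5.28 ± 0.88, which their choice fixed.

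The calls turned on S302A_DEN replicate 3 and on the scaling. Without replicate 3 the differences were smaller, yet both Krt18 (1.01, adjusted p = 0.0310) and Sox9 (0.91, adjusted p = 0.0389) rose past the threshold, in a fit that called 1.22% of genes higher. Krt8 did not (0.91, adjusted p = 0.0639). Without S302A_DEN replicate 2 the same 2 genes were called, Krt18 at 1.67 (adjusted p = 0.0368) and Sox9 at 1.96 (adjusted p = 0.0257). That fit called 300 of 12067 genes higher. With median-of-ratios scaling all 3 were called: Krt18 at 1.16 (adjusted p = 0.0124), Sox9 at 1.27 (adjusted p = 0.0269) and Krt8 at 1.27 (adjusted p = 0.0343). The scaled fit called 324 of 12120 genes higher.

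In wild-type livers no marker of the set was called after DEN. Here Spp1 and Tff3 could be tested, since their choice used knock-in livers, and 0 of the 6 genes had an adjusted or unadjusted p below 0.05 in limma, against 0.116% of tested genes called higher and 8.26% with an unadjusted p below 0.05. The log2 difference of WT_DEN against WT_Ctrl was -0.05 ± 0.32 for Spp1 (SE, adjusted p = 0.994) and 1.11 ± 0.88 for Tff3 (adjusted p = 0.868). It was -0.07 for Krt8 (adjusted p = 0.993), -0.31 for Krt18 (adjusted p = 0.915), 0.14 for Sox9 (adjusted p = 0.988) and 0.17 for Krt23 (adjusted p = 0.946). S302A_DEN replicate 3 enters the spread of this fit: without it 258 genes were called in either direction, against 16 with it. Of the 6 markers 0 were called without it, and the lowest adjusted p were 0.348 for Krt18 and 0.430 for Tff3. The values of all 6 genes overlapped between the wild-type groups, whereas 21.7% of tested genes lay higher in WT_DEN without overlap. The sign for Spp1 turned to 0.24 without WT_Ctrl replicate 2 and to 0.08 without WT_DEN replicate 2, and that for Krt8 to between 0.04 and 0.06 when WT_Ctrl replicate 1, WT_DEN replicate 2 or WT_DEN replicate 3 was left out.

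**Figure D4:**
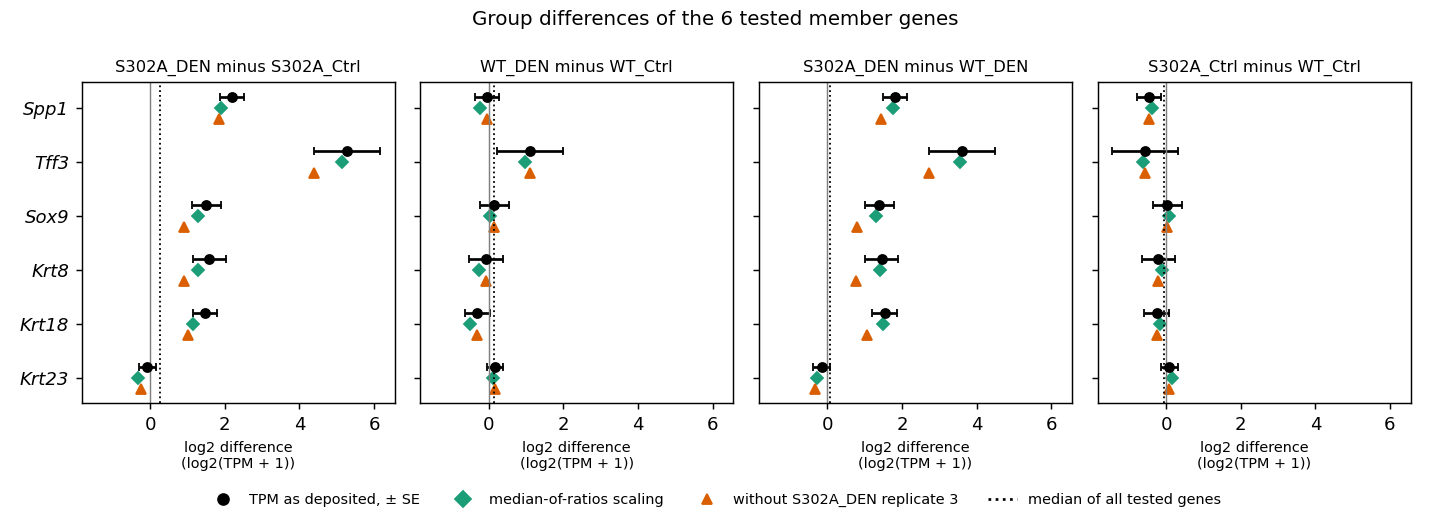
Log2 difference of the 6 genes in 4 comparisons, on the log2(TPM + 1) scale: circles with SE from the TPM as deposited, diamonds after median-of-ratios scaling, triangles without S302A_DEN replicate 3, and a dotted line at the median of all tested genes. Both comparisons that hold S302A_DEN livers place Spp1, Tff3, Sox9, Krt8 and Krt18 right of that line, with Krt18 at 1.47 and 1.53, and in the other comparisons their circles lie between -0.57 and 0.14, except Tff3 at 1.11 in wild type.

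Between the genotypes after DEN, the S302A_DEN libraries lay above the WT_DEN libraries without overlap for 3 of the 4 members not picked (Krt8, Krt18 and Sox9), against 3.23% of tested genes. Limma called none of the 4, with 3 at an unadjusted p below 0.05, against 0.107% of tested genes called higher and 7.83% at that unadjusted p. Krt18 stood higher by 1.53 ± 0.33 (SE, adjusted p = 0.0808), Krt8 by 1.45 ± 0.44 (adjusted p = 0.270) and Sox9 by 1.39 ± 0.39 (adjusted p = 0.201). Leaving out S302A_DEN replicate 3 brought Krt18 (1.07, adjusted p = 0.0170) and Sox9 (0.80, adjusted p = 0.0382) past the threshold, where 0.589% of genes were called higher. Krt8 was then at 0.77 (adjusted p = 0.0683). Scaling brought all 3 past it, at 1.48 for Krt18 (adjusted p = 0.00827), 1.40 for Krt8 (adjusted p = 0.0395) and 1.30 for Sox9 (adjusted p = 0.0368). The scaled fit called 62 of 12120 genes higher in this comparison. For Spp1 and Tff3 the differences were 1.80 and 3.61, as a description. In mean TPM, S302A_DEN livers stood at 4.69 times WT_DEN livers for Sox9, 3.80 times for Spp1, 3.40 times for Krt8 and 3.21 times for Krt18. Without S302A_DEN replicate 3 these ratios were 2.33 for Sox9, 2.75 for Spp1, 1.67 for Krt8 and 2.08 for Krt18, so their order changed.

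Without DEN no member was called between the genotypes. S302A_Ctrl minus WT_Ctrl was -0.25 for Krt18, -0.21 for Krt8, 0.03 for Sox9 and 0.09 for Krt23, each with an adjusted p of 1 in limma and none with an unadjusted p below 0.05, against 0.033% of tested genes called and 1.48% at that unadjusted p. Spp1 was at -0.45 and Tff3 at -0.57, as a description.

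Whether DEN acted differently in the 2 genotypes is asked by the interaction, the DEN difference in the knock-in minus that in wild type. It was 1.78 ± 0.47 for Krt18 (SE, limma adjusted p = 0.410), 1.66 ± 0.63 for Krt8 (adjusted p = 0.776), 1.36 ± 0.55 for Sox9 (adjusted p = 0.853) and -0.24 for Krt23 (adjusted p = 0.975). Of these 4 genes 0 were called and 3 had an unadjusted p below 0.05, against 0.0248% of tested genes called higher and 5.06% at that unadjusted p. A difference of the DEN effect between genotypes was thus not established for any keratin or for Sox9. Krt18 came nearest, with an adjusted p of 0.0686 without S302A_DEN replicate 3, 0.0680 with scaling, and 0.0297 with both together, at 1.49, a combination chosen after the data were seen. The combined fit called 31 of 11883 genes higher.

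Spp1, Tff3, Krt8, Krt18 and Sox9 shared 1 pattern that no single contrast states: all 3 S302A_DEN libraries lay above the 9 others. This held for 191 of 12120 tested genes (1.58%). For Spp1 and Tff3 it follows in part from their choice. All 3 of the others passed the filter in other groups as well, Krt8 and Krt18 in all 12 libraries and Sox9 in 6 libraries outside S302A_DEN.

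Over the 12 libraries the likeness of levels was measured by Spearman correlation among genes with a mean of at least 5 TPM, as a description of libraries that share groups. The gene most like Spp1 was Tff3 (0.92, and 0.90 without S302A_DEN replicate 3), followed by Rab3gap1 and Wbp5 (0.91 each, and 0.88 each without it). Tff3 was most like Spp1, then Ifi27l2b and Kifc3 (0.91 each). Spp1 and Tff3 were both picked for standing higher after DEN in the knock-in, so their likeness follows in part from that choice. Sox9 was most like Lcn2, which encodes lipocalin 2, a secreted iron-carrier-binding protein of injured epithelium and hepatocytes (0.97, and 0.96 without replicate 3). Lcn2 had 78.2, 28.3 and 404 TPM in S302A_DEN and 1.98, 7.20 and 7.11 TPM in S302A_Ctrl. It had 19.3, 3.34 and 17.6 TPM in WT_DEN and 3.10, 22.3 and 6.64 TPM in WT_Ctrl, so its S302A_DEN libraries too lay above the other 9. Krt8 was most like Krt18, then Mrps30 (0.93) and Rpf2 (0.92), and Krt18 was most like Krt8, then AK155917 (0.93) and Bud31 (0.92). Krt23 was most like Bid and Ppp3ca (0.91 each) and Zfp36l2 (0.87), but it exceeded 1 TPM in only 7 of the 12 libraries, so its ranks hold ties at the floor. The epithelial keratins and the secreted pair were less alike in rank. Spp1 had 0.54 with Krt8 and 0.49 with Krt18, or 0.40 and 0.34 without replicate 3. Tff3 had 0.64 with Krt8 and 0.56 with Krt18, or 0.53 and 0.41 without it. As Pearson correlations of log2(TPM + 1) over the 12 libraries, Spp1 had 0.85 with Krt8 and 0.86 with Krt18, and Tff3 had 0.80 with each. Without replicate 3 these fell to 0.67 and 0.68 for Spp1, and to 0.60 with Krt8 and 0.58 with Krt18 for Tff3.

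Other duct genes were either at the floor or not called with the TPM as deposited. Of 25 further cholangiocyte genes 11 passed the filter, and limma called 0 for DEN in the knock-in. There 2 had an unadjusted p below 0.05, among them Cdh1, against 16.4% of all tested genes. The median log2 difference of the 11 was 0.32, against 0.27 over all tested genes. Without S302A_DEN replicate 3 it was 0.01, against 0 over all tested genes. Cldn4, Cldn7, Cftr, Sctr, Muc1, Pkhd1 and Grhl2 stood at 1 TPM in all 12 libraries, among them the defining duct channel gene Cftr and the secretin receptor gene Sctr. The summed level of the 25 genes was 153 to 454 TPM in S302A_DEN, 159.5 to 178 TPM in S302A_Ctrl, 184 to 199 TPM in WT_DEN and 160.2 to 180.4 TPM in WT_Ctrl. Its top belonged to replicate 3, which was the highest of the 12 libraries for all 11 tested genes, as it was for 70.8% of all tested genes. That library alone held Ggt1 (79.0 TPM), Bicc1 (10.1 TPM), St14 (7.66 TPM) and Prom1 (2.15 TPM), which stood at 1 in the other 11, and it held Elf3 at 6.64 TPM. Cdh1, the E-cadherin gene, had 10.01, 9.43 and 32.4 TPM in S302A_DEN and 2.81, 4.31 and 3.01 TPM in WT_DEN without overlap. That difference was 1.85 on the log2 scale (adjusted p = 0.1004). Untreated livers had 7.08, 4.96 and 7.62 TPM (S302A_Ctrl) and 4.28, 10.6 and 8.55 TPM (WT_Ctrl). S302A_DEN replicates 1 and 2 thus lay below WT_Ctrl replicate 2. The DEN difference of Cdh1 was -0.95 in wild type (adjusted p = 0.588) and 1.07 in the knock-in (adjusted p = 0.262). Without replicate 3 the latter was 0.52 (adjusted p = 0.425). Between the genotypes after DEN, Cdh1 passed the threshold without S302A_DEN replicate 3 (1.31, adjusted p = 0.0334) and with scaling (1.78, adjusted p = 0.0372). Scaling also brought a call for Pkd2, the polycystin 2 gene, in the same comparison (0.58, adjusted p = 0.0363). Atp1b1, a sodium pump subunit gene, was called lower for DEN in the knock-in with scaling (-0.63, adjusted p = 0.0316). Atp1b1 was also called lower for DEN averaged over the genotypes, with scaling (-0.52, adjusted p = 0.0178) and without replicate 3 (-0.47, adjusted p = 0.0350).

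Progenitor and fetal liver genes were few above the floor. Of 15 listed, 8 passed the filter and limma called 0 for DEN in the knock-in. There 2 had an unadjusted p below 0.05 (Tnfrsf12a and Afp), against 16.4% of all tested genes. The median log2 difference of the 8 was 0.55, against 0.27 over all tested genes. Without replicate 3 it was 0.01 over those still tested, against 0 over all tested genes. Nearest was Tnfrsf12a, the receptor for the progenitor mitogen TWEAK, with 12.7, 28.5 and 76.4 TPM in S302A_DEN and 6.80, 4.83 and 5.38 TPM in S302A_Ctrl. In WT_DEN it had 9.59, 7.55 and 14.1 TPM, against 8.20, 5.62 and 6.05 TPM in WT_Ctrl, so the S302A_DEN libraries lay above S302A_Ctrl but overlapped WT_DEN. For DEN in the knock-in the log2 difference was 2.25 (adjusted p = 0.0593), or 1.60 without S302A_DEN replicate 3 (adjusted p = 0.0322) and 2.85 without replicate 1 (adjusted p = 0.00847). It was also called with scaling (1.96, adjusted p = 0.0205), with the filter of TPM at least 5 (adjusted p = 0.0349) and with a pseudocount of 0.1 (adjusted p = 0.0485). Those 3 fits called 324 of 12120, 96 of 7806 and 66 of 12120 genes higher. Over the fits without 1 library the adjusted p of Tnfrsf12a ranged up to 0.211, with a call only without S302A_DEN replicate 1 or 3. Afp, the fetal albumin-like gene, had 2.68, 2.39 and 37.7 TPM in S302A_DEN and 1, 1 and 1.52 TPM in S302A_Ctrl, so its difference lay mainly in replicate 3. In WT_DEN it had 5.12, 1.28 and 8.64 TPM, against 2.48, 1.73 and 1.60 TPM in WT_Ctrl.

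Signals that act on duct fate were measured through the Notch pathway and through YAP and TEAD. In each list 1 gene rose with DEN averaged over both genotypes, a comparison in which 1.05% of tested genes were called higher and 19.4% had an unadjusted p below 0.05. It was Hes1 among 5 tested Notch genes, the main transcriptional target of Notch in liver, with 13.2, 7.95 and 25.5 TPM in S302A_DEN and 4.63, 7.15 and 6.85 TPM in S302A_Ctrl. In WT_DEN it had 13.4, 15.9 and 13.3 TPM, against 5.64, 3.59 and 4.45 TPM in WT_Ctrl, so DEN-treated livers of either genotype lay above their controls. The averaged log2 difference was 1.27 (limma adjusted p = 0.0351). Among 9 tested YAP and TEAD genes it was Nuak2, a kinase gene that YAP induces, with 6.28, 6.16 and 7.18 TPM in S302A_DEN and 2.46, 2.79 and 3.72 TPM in S302A_Ctrl. It had 5.18, 5.69 and 6.06 TPM in WT_DEN and 2.96, 1.98 and 3.24 TPM in WT_Ctrl, a difference of 0.89 (adjusted p = 0.0221). Neither gene was called between the genotypes after DEN (adjusted p = 1 for Hes1 and 0.911 for Nuak2). Leaving out 1 library raised the adjusted p to at most 0.0978 for Hes1 and 0.0826 for Nuak2, and without the filter it was 0.0504 for Hes1. The Hes1 call then held only without WT_Ctrl replicate 1, S302A_DEN replicate 2 or S302A_DEN replicate 3, and the Nuak2 call was lost without WT_Ctrl replicate 2, S302A_Ctrl replicate 1 or 2, or WT_DEN replicate 2 or 3. Across both genotypes Sox9, the nearest of the 4 members not picked, stood higher by 0.82 with DEN (adjusted p = 0.151), and by 0.53 (adjusted p = 0.0428) without S302A_DEN replicate 3, where 4.14% of genes were called higher.

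Partners of the members were set beside them. Of 16 osteopontin receptors and processing enzymes, 10 passed the filter and limma called 0 for DEN in the knock-in. There 1 had an unadjusted p below 0.05, the integrin gene Itga5, against 16.4% of all tested genes. CD44, an osteopontin receptor, had 1, 1 and 4.90 TPM of its gene Cd44 in S302A_DEN and between 1 and 1.62 TPM in the other 9 libraries, and the integrin genes Itgb3 and Itgb6 stood at 1 TPM throughout. The other 4 members of the osteopontin gene family, Ibsp, Dmp1, Dspp and Mepe, stood at 1 TPM in all 12 libraries. Of 16 other keratin genes 1 passed, Krt10, at no more than 2.00 TPM. Of 12 trefoil and goblet cell genes 2 passed, of which 0 had an adjusted or unadjusted p below 0.05 in limma for DEN in the knock-in, and Muc2, Agr2 and Spdef, which mark goblet cells, stood at 1 TPM throughout. Of 12 keratin partner and stress genes, 11 passed, and limma called 0 for DEN in the knock-in. There 5 had an unadjusted p below 0.05 (Hspb1, Hspb8, Ppl, Sqstm1 and Tgm2), against 16.4% of all tested genes. Ppl, the periplakin gene, whose product links keratin filaments to cell junctions, had 2.86, 4.47 and 19.1 TPM in S302A_DEN and 1.19, 1.06 and 1 TPM in S302A_Ctrl. It stood higher by 1.85 (adjusted p = 0.104), by 1.14 without replicate 3 (adjusted p = 0.0691) and by 1.65 with scaling, where it was called (adjusted p = 0.0311). In this list Hspb8, which encodes a small heat shock protein, rose with DEN averaged over both genotypes, by 0.66 (adjusted p = 0.0361). Hspb8 had 126, 109.8 and 145 TPM in S302A_DEN and 93.4, 79.5 and 83.1 TPM in S302A_Ctrl, with 152, 120.2 and 136 TPM in WT_DEN and 90.7, 74.8 and 75.9 TPM in WT_Ctrl. Its call held in the fits without WT_Ctrl replicate 1, S302A_DEN replicate 2 or S302A_DEN replicate 3 and was lost in those without any other library (adjusted p up to 0.103).

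Macrophages are a second source of osteopontin, so their markers are given beside Spp1. Of 8 genes of lipid-associated macrophages 5 passed, and limma called 0 for DEN in the knock-in. There 4 of the 5 had an unadjusted p below 0.05, against 16.4% of all tested genes. The median log2 difference of the 5 was 2.00, or 1.26 without replicate 3, against 0.27 and 0 over all tested genes. The summed level of the 8 was 248 to 442 TPM in S302A_DEN and 51.1 to 61.3 TPM in S302A_Ctrl. It was 49.3 to 79.1 TPM in WT_DEN and 56.1 to 88.5 TPM in WT_Ctrl. In this sum, as for Spp1, the S302A_DEN libraries lay above the other 9, but different genes led it in different libraries. Fabp5, a fatty acid carrier gene that other cells also express, had 380, 193 and 25.8 TPM in S302A_DEN and 25.0, 22.6 and 27.0 TPM in S302A_Ctrl. Lpl, the lipoprotein lipase gene, had 8.30, 9.83 and 120.5 TPM in S302A_DEN and 3.43, 3.32 and 2.88 TPM in S302A_Ctrl. Without replicate 3 both were called (adjusted p = 0.00143 for Fabp5 and 0.0310 for Lpl), and with scaling Cd63 was (adjusted p = 0.0389). The fit without replicate 3 called 1.22% of all tested genes higher. The defining genes were at or near the floor: Gpnmb stood at 1 TPM in all 12 libraries and Trem2 at 3.05 TPM in S302A_DEN replicate 3 and at 1 in the others. Of 11 Kupffer cell and macrophage genes 0 had an adjusted or unadjusted p below 0.05 in limma for DEN in the knock-in, and their summed level was 114 to 815 TPM in S302A_DEN, 159.8 to 277 TPM in S302A_Ctrl, 134 to 259.8 TPM in WT_DEN and 125 to 290.4 TPM in WT_Ctrl, which overlapped. The part of macrophages in the Spp1 difference was not tested.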

How the data were processed

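TPM per gene symbol was deposited by the authors for each of the 12 libraries; per the submitters' processing notes it came from kallisto and mm10, and the kallisto version and annotation release are not given in the sources used here. Per the labels' protocols, RNA was isolated with an RNeasy kit and libraries were made with TruSeq kits for an Illumina HiSeq instrument. The values start at 1, which no source explains, and totals do not give depth. One label field gives an age of 33 to 41 weeks at sacrifice and another 30 to 38 weeks, read here as time since injection.

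Genes with TPM above 1 in at least 3 of 12 libraries (12120) were analysed as log2(TPM + 1) with limma 3.58.1 in R 4.3.3, in 1 model of the 4 group means with a trended prior and 8 residual degrees of freedom. Tests were two-sided, with Benjamini-Hochberg adjustment over the 12120 genes and a threshold of 0.05. The fit was tested on simulated data. Members and the 18 gene lists were chosen with earlier results of these data known, and a count over a list is no independent evidence. All members were named in every library, then up to 3 genes of each list by smallest p and the 3 genes most like each tested member; other genes named, such as those at the floor or seen only in 1 library, were chosen after their values were seen. Alternatives were a pseudocount of 0.1, an unfiltered table, a filter of TPM at least 5, median-of-ratios scaling, the libraries of a contrast alone, a replicate block and leaving out each library. Gene positions come from a GENCODE annotation of mm10. Some genes of the lists are not reported here.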

Additional observations from a re-analysis of the deposited data

How the results depend on the processing

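The direction of Spp1, Tff3, Sox9, Krt8 and Krt18 in both comparisons that hold S302A_DEN livers held under every alternative in which the gene was tested. Sox9 did not pass the filter of TPM at least 5, so it was not tested there. Calls did not hold in the same way. Counts of called members that were not picked (0 as reported in every comparison) became 1 for DEN in the knock-in with the filter of TPM at least 5 (Krt18, adjusted p = 0.0468), 3 with median-of-ratios scaling and 3 with that scaling and without S302A_DEN replicate 3, a pair of choices added after the data were seen. For the knock-in after DEN they became 3 and 3 with the same settings, and with the added one they became 1 for DEN averaged over genotypes (Sox9, adjusted p = 0.0364) and 1 for the interaction. Leaving out 1 library gave 0 to 2 for DEN in the knock-in, 0 to 2 for the knock-in after DEN, 0 to 1 for DEN averaged and 0 in the other comparisons.

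Counts over all tested genes were 75 for DEN in the knock-in, 16 for DEN in wild type, 162 for DEN averaged, 46 for the knock-in after DEN, 4 for the knock-in without DEN and 5 for the interaction. In that order, no filter gave 35, 3, 86, 28 and 0, with the interaction within 1.5 times. Scaling gave 679, 25, 726 and 210, and 13 for the interaction; scaling without S302A_DEN replicate 3 gave 877, 210, 1201 and 420, and 81. The filter at 5 gave 132 for DEN in the knock-in. The libraries of a contrast alone gave 17 and 147 for DEN in the knock-in and in wild type, 4 for the knock-in after DEN and 2 without DEN. Leaving out 1 library gave 16 to 335, 1 to 258, 17 to 1037, 6 to 700, 0 to 12 and 2 to 75. The causes were not tested.

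Whether replicate numbers pair the libraries was not settled. Same-numbered libraries of different groups had correlations of their deviations of -0.187 to 0.282 (median 0.06), with 5 of 18 over 0.1. Differently numbered libraries of different groups had -0.230 to 0.255 (median -0.023), with 5 of 36 over 0.1. These ranges overlap and do not decide the question. The replicate block gave 5 genes for DEN in wild type and 87 for DEN averaged, moved the other counts by less than 1.5 times and changed no member's call.

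Signs turned only where differences were small and uncalled. Over the fits without 1 library, Krt23 ranged from -0.25 to 0.014 for DEN in the knock-in, from -0.028 to 0.33 in wild type, from -0.051 to 0.13 for DEN averaged and from -0.33 to 0.042 for the knock-in after DEN. With scaling it was -0.10 for DEN averaged, and -0.10 with scaling and without S302A_DEN replicate 3. In wild type, Krt8 ranged from -0.31 to 0.059 and Spp1 from -0.21 to 0.24. Without DEN, Sox9 ranged from -0.031 to 0.15 between the genotypes and Upk3b, a mesothelial gene, from -0.47 to 0.018. Csf3r, a neutrophil gene, ranged from -0.0085 to 0.46 for DEN in the knock-in and was -0.039 with scaling and without S302A_DEN replicate 3.

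The floor at 1 TPM limits what can be said of Krt7, Krt19 and Epcam, of Tff3 in untreated livers and of Sox9 outside S302A_DEN.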

Other observations

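Other liver cell types were followed through lists of their markers, none of whose genes was called by limma for DEN in the knock-in. Without S302A_DEN replicate 3 the hepatocyte gene Fga, which encodes a fibrinogen chain, was called higher there (1.27, adjusted p = 0.0127), as were 1.22% of all tested genes. With all libraries, an unadjusted p below 0.05 was found for 3 hepatocyte genes (Apoa1, Fga and Hnf4a) and 3 stellate cell genes (Col1a1, Lum and Pdgfrb). It was also found for 1 lymphocyte gene (Cd4), 1 mesothelial gene (Msln) and 0 genes of the endothelial, neutrophil and pancreas lists. Over all tested genes 16.4% had such a p. Of 11 hepatocyte genes all passed the filter, and their summed level was 53287 to 63498 TPM in S302A_DEN and 45606 to 58066 TPM in S302A_Ctrl. It was 75034 to 90129 TPM in WT_DEN and 41456 to 66061 TPM in WT_Ctrl, so the wild-type groups did not overlap in it. The WT_DEN sums also lay above all S302A_DEN sums. Of 12 stellate cell and fibroblast genes 11 passed, with summed levels of 39.3 to 256 TPM in S302A_DEN and 50.4 to 58.5 TPM in S302A_Ctrl; S302A_DEN replicate 3 was the highest of the 12 libraries for all 11, as it was for 70.8% of all tested genes. Of 8 sinusoidal endothelial genes 7 passed, with summed levels of 42.1 to 101 TPM in S302A_DEN and 53.2 to 93.1 TPM in S302A_Ctrl. Lymphocyte genes (3 of 9 passed), neutrophil genes (4 of 6), exocrine pancreas genes (2 of 7) and mesothelial genes (2 of 6) stood mostly at or near the floor of 1 TPM.

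Marco, a scavenger receptor gene of macrophages, stood at 1 TPM in all 3 WT_DEN libraries. It had 32.9, 3.09 and 17.5 TPM in S302A_DEN, 6.71, 4.76 and 11.9 TPM in S302A_Ctrl and 2.99, 2.39 and 9.20 TPM in WT_Ctrl. Its S302A_DEN and WT_DEN libraries did not overlap, at a log2 difference of 2.78 (limma adjusted p = 0.101), which did not pass the threshold. It was called without S302A_DEN replicate 2 (3.65, adjusted p = 0.00988), and the adjusted p ranged up to 0.351 over the fits without 1 library. It stood at 2.56 without S302A_DEN replicate 3 (adjusted p = 0.0667) and at 2.62 with the libraries scaled by the median-of-ratios method (adjusted p = 0.0724). Of the 11 tested Kupffer cell and macrophage genes, 10 stood higher in S302A_DEN than in WT_DEN. The median log2 difference of the 11 was 0.40, or -0.18 without S302A_DEN replicate 3. Over all tested genes that median was 0.07, or -0.20 without the replicate.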
